A study of Mus musculus with 35 samples.

Results

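Formative epiblast genes were followed through a GATA6-driven exit from the embryonic stem (ES) cell state. The 8 genes were Otx2, Foxd3, Zic2, Sall2, Fgf5, Utf1, Lin28a and Lin28b, matched by symbol among the 44853 genes of the induction table. Of these, Zic2, Sall2, Utf1, Lin28a and Lin28b were also listed among the 6275 genes of the siRNA table used here. The induction series held KH2 ES cells of C57BL/6 x 129/Sv background that carried a doxycycline (Dox) inducible GATA6 cassette, with 3 libraries before Dox (0 h) and 3 at each of 6 later times. These times were 16 and 24 h, 48 and 72 h, and 96 and 168 h, with Dox used at 1 µg/mL. It also held 2 libraries of wild-type XEN cells, a stem cell line of extra-embryonic endoderm with a CD1 background that received neither Dox nor leukaemia inhibitory factor. In the siRNA series, inducible ES cells received either a control siRNA (siCTL, 6 libraries) or an siRNA to Oct4 (siOct4, 6 libraries) and were taken at 48 h of Dox. The ES cells were therefore selected transgenic clones at every time, 0 h included, and all cells had grown on mouse fibroblast feeders, whose removal by adsorption before lysis is described for the inducible ES cells. XEN cells differed from the ES cells in strain, derivation and medium as well as in state, and these cannot be told apart.

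Pluripotent cells pass through a formative state between the naive epiblast of the blastocyst and the primed epiblast of the gastrula. In it, naive factors are lost, the homeodomain factor OTX2 redirects OCT4 to new enhancers, and the forkhead factor FOXD3, zinc finger factors such as ZIC2 and SALL2, the growth factor FGF5 and the RNA-binding LIN28 proteins accompany the change. GATA6 instead directs the other lineage of the inner cell mass, the primitive endoderm (PrE), of which XEN cells are a cultured counterpart. Several of the 8 genes also act outside the epiblast, Otx2 in the anterior visceral endoderm among them.

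Values were TPM, the abundance of a gene's transcripts corrected for their length and scaled so that a whole library sums to 1000000, which lets levels of different genes be compared. Depth is unknown because TPM do not keep read numbers, and the error used is the spread between libraries. Each induction library had 12034 to 13109 genes at 1 TPM or more. Gata6, which counts the cassette together with the endogenous gene, stood at 0.193 to 0.375 TPM at 0 h and at 129 to 138 TPM at 16 h, as the labels of induced cells require. All 12 PrE markers were higher at every time from 16 h. Changes were tested with limma on log2(TPM + 1), over the genes whose mean reached 1 TPM in any group. A gene was called at a Benjamini-Hochberg adjusted p under 0.05 and a log2 change over 1 (0.5 in the siRNA series). Of the 8 genes, 7 passed the filter on low values, and Fgf5 did not. Because these were bulk samples, fewer expressing cells and less RNA per cell cannot be told apart.

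In the GENCODE M21 annotation of GRCm38 (mm10), Otx2 (ENSMUSG00000021848.16) lies at chr14:48657677-48673819 on the minus strand and Foxd3 (ENSMUSG00000067261.4) at chr4:99656299-99658622 on the plus strand. Zic2 (ENSMUSG00000061524.8) lies at chr14:122475435-122479852 on the plus strand and Sall2 (ENSMUSG00000049532.11) at chr14:52311172-52328762 on the minus strand. Fgf5 (ENSMUSG00000029337.2) lies at chr5:98254184-98277030 and Utf1 (ENSMUSG00000047751.9) at chr7:139943789-139945112, both on the plus strand. Lin28a (ENSMUSG00000050966.9) lies at chr4:134003330-134018841 and Lin28b (ENSMUSG00000063804.8) at chr10:45376620-45486395, both on the minus strand. All 8 are annotated as protein-coding.

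The promoters shown here are those of Foxd3, which fell most steeply with Otx2 in the early hours of induction, and of the Lin28 paralogs, which moved apart. With Otx2, these 4 genes are also the only ones with a match to a spelling below, in 5 of 11 windows. The Otx2 stretch was cut around its matches. Windows of Fgf5, Utf1 and Sall2 held no match and are not printed. The printed sequences come from just before RefSeq starts on GRCm38.p6 and are written 5′ to 3′ on the gene's strand. The Lin28b start lies inside the longer gene of GENCODE M21, and the Otx2 stretch lies before 1 of several Otx2 starts, also inside the M21 gene. Capitals mark matches on either strand to a GATA spelling (AGATAA and TGATAA, and also AGATAG and TGATAG), to the octamer ATGCAAAT or to the SOX spelling ACAATG. None of the matches overlapped another.
Foxd3, chr4:99656049-99656298, plus strand: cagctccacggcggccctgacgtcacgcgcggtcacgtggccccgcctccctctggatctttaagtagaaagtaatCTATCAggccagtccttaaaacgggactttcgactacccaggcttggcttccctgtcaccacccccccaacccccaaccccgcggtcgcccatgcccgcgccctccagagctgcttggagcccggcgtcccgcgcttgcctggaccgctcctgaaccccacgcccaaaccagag
Lin28b, chr10:45470202-45470451, minus strand: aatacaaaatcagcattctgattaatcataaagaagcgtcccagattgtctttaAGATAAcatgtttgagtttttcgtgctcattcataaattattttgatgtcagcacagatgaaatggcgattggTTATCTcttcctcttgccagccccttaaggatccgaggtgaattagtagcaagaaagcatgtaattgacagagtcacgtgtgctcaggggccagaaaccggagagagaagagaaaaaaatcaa
Lin28a, chr4:134018842-134019066, minus strand: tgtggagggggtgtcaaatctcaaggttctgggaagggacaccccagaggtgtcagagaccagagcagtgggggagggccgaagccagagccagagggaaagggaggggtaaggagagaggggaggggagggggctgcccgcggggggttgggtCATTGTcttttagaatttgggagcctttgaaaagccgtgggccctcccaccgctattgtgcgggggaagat
Otx2, chr14:48665293-48665322, minus strand: tcggaTTATCTcgttagtTTATCAagaaaa

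The Foxd3 window of 250 bases held 1 GATA spelling, 169 to 174 bases before the start. The Lin28b window held 2, at 118 to 123 and 191 to 196 bases before the start, while the Lin28a window held none and carried instead the SOX spelling at 91 to 96 bases. The Lin28a sequence is printed without 25 bases that GENCODE M21 places in an exon. RefSeq windows matched 7 of the 8 genes by symbol, 11 windows in all because Otx2 and Sall2 have several starts, and 4 of the 11 held a GATA spelling. Over all 32851 mouse windows of the same length, 26.5% held a GATA spelling, 1.6% the octamer and 10.7% the SOX spelling. The octamer was in none of the 11. Such matches describe letters and are not shown to be bound sites.

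**Figure D1:**
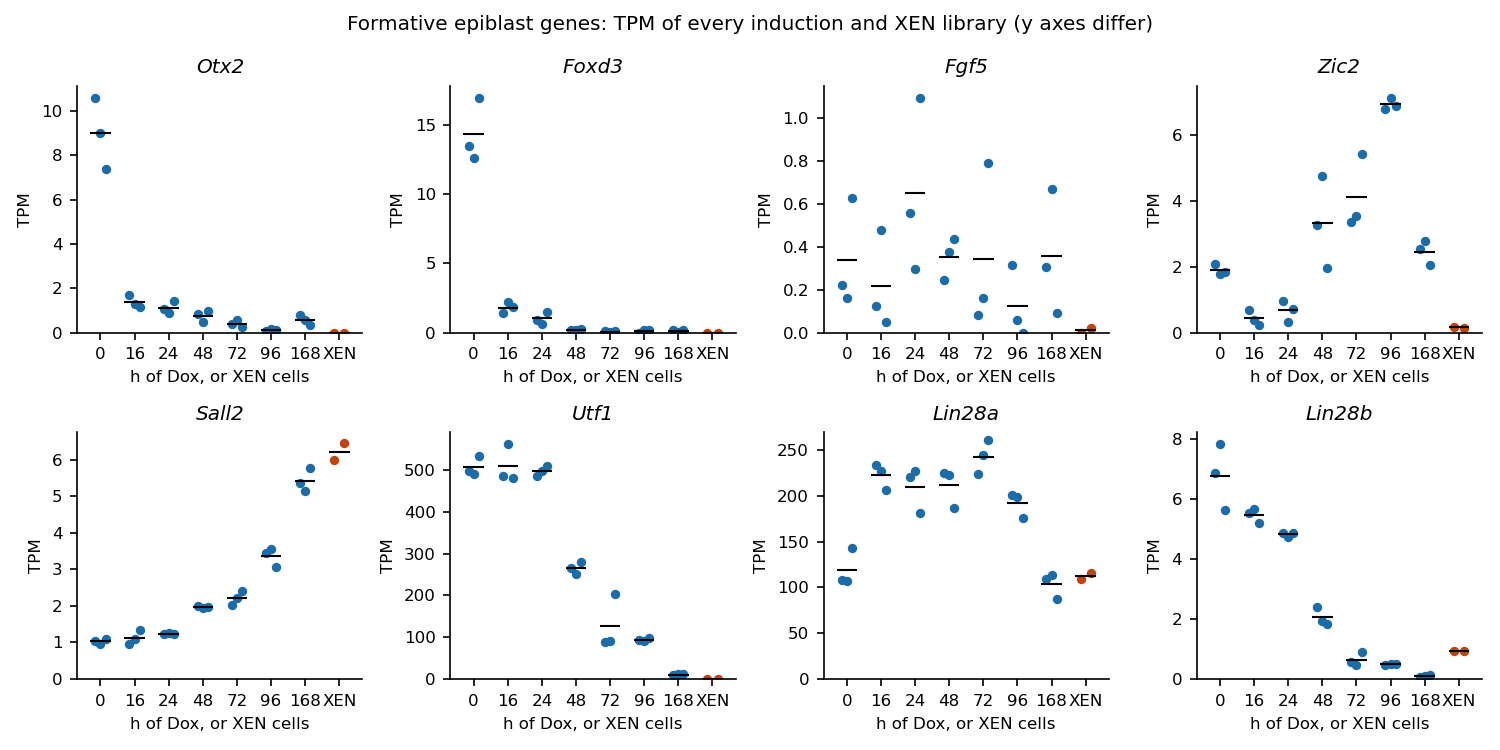
TPM (y axis, a separate scale for each gene) of every library of the induction series by hours of Dox, with XEN cells at the right. Blue points are induced libraries (3 per time), orange points XEN libraries (2) and black lines group means. Otx2 and Foxd3 dropped by 16 h, Utf1 and Lin28b later, Sall2 climbed to 5.43 TPM at 168 h, and Zic2 and Lin28a peaked at 96 and 72 h.

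The 8 genes did not move as a group. Against 0 h, 3 of the 7 tested genes were called lower at 16 h (Otx2, Foxd3 and Zic2) and 0 higher, where 0.804% of all 15057 tested genes were lower and 1.97% higher. At 24 h, Otx2 and Foxd3 were lower and 0 were higher, against 2.44% and 3.24% of all genes. At 48 h, Otx2, Foxd3 and Lin28b were lower and 0 higher, against 7.26% and 9.14%. 

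At 72 h, Otx2, Foxd3, Utf1 and Lin28b were lower and Lin28a higher, against 11.5% of all genes lower and 14.7% higher. The same 4 genes were lower at 96 h, when Zic2 and Sall2 were higher, against 14.1% and 15.4%. At 168 h, these 4 were lower and Sall2 higher, against 16.5% and 22.6%. The median log2 change at 168 h was -2.66 over the 7 tested genes and 0.09 over all tested genes. All these comparisons share the same 3 libraries of 0 h.

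**Figure D2:**
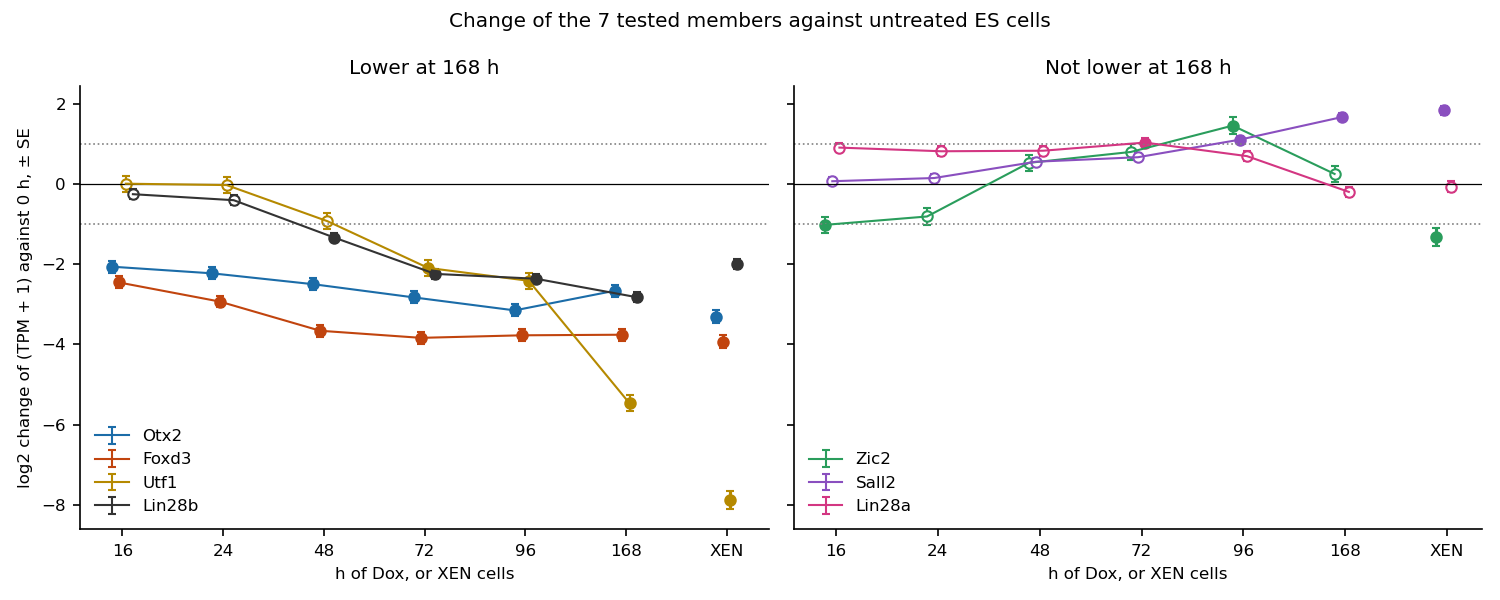
Log2 change of (TPM + 1) against 0 h (y axis) at each time of Dox and in XEN cells (x axis) for the 7 tested genes. Bars are ± 1 standard error from limma, filled points passed both thresholds, open points did not, and dotted lines mark changes of 1 and -1. The left panel holds the genes lower at 168 h, Utf1 at -5.47 there, and the right panel the other genes, Sall2 at 1.66 at that time.

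Otx2, the homeodomain factor that drives the naive to formative transition, was expressed in the untreated ES cells and fell within 16 h. At 0 h its levels were 10.6, 8.99 and 7.37 TPM, and at 16 h they were 1.68, 1.28 and 1.18 TPM. Every induced library lay below every library of 0 h. The log2 change at 16 h was -2.06 ± 0.15 (SE, n = 3 per group; limma adjusted p = 8.73e-09), leaving a mean level of 15.3% of that at 0 h.

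The later decline of Otx2 came in steps that were not called. Its levels were 1.04, 0.902 and 1.42 TPM at 24 h and 0.833, 0.497 and 0.955 TPM at 48 h. They were 0.365, 0.567 and 0.264 TPM at 72 h and 0.0609, 0.182 and 0.101 TPM at 96 h, when the mean was 1.28% of that at 0 h. At 168 h the levels of 0.814, 0.589 and 0.335 TPM all lay above those at 96 h, a log2 difference of 0.49 ± 0.15 (limma adjusted p = 0.0130) that was short of the change of 1 needed for a call. With a pseudocount of 0.1 in place of 1, this difference was 1.63 (limma adjusted p = 0.000494) and the step from 72 to 96 h was -1.21 (limma adjusted p = 0.0183), and both were called. Both XEN libraries listed Otx2 at 0. All Otx2 values at 96 and 168 h lay under 1 TPM. Feeder markers, described below, were also higher at 168 h, and their part in this difference was not tested.

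Otx2 is also a gene of the anterior visceral endoderm, a derivative of the PrE. Of the 8 genes fixed for that tissue, Otx2 included, 6 were tested. At 168 h, 2 of the 6 were higher, namely Foxa2 and Dkk1, and 2 were lower, namely Otx2 and Lefty1. Foxa2, a forkhead factor of endoderm, went from 0.230 ± 0.138 to 100.3 ± 12.9 TPM (SD, n = 3), a log2 change of 6.36 ± 0.24 (limma adjusted p = 1.64e-14). Dkk1, a secreted WNT antagonist, went from 0.0744 ± 0.0521 TPM to between 19.9 and 23.5 TPM. Lefty1, a NODAL antagonist, went from 29.2 ± 18.3 to 1.09 ± 0.130 TPM. Hhex, a homeodomain factor, was at 4.49 ± 0.105 TPM at 0 h and 9.37 ± 0.591 TPM at 168 h, a log2 change of 0.92 that was not called. At 96 h, however, Hhex was called higher, at 26.1 ± 0.810 TPM.

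Foxd3, a forkhead repressor needed by epiblast and neural crest cells, fell at the same time as Otx2 and further. Its levels were 13.5, 12.6 and 17.0 TPM at 0 h and 1.38, 2.18 and 1.84 TPM at 16 h. The groups were far apart, with a log2 change of -2.46 ± 0.15 (limma adjusted p = 5.95e-10) and 12.5% of the starting level left. At 24 h its levels were 0.932, 0.639 and 1.52 TPM, and at 48 h 0.163, 0.203 and 0.254 TPM, 1.44% of the mean at 0 h. From 72 h on no induced library exceeded 0.203 TPM, the 72 h values being 0.0913, 0.0203 and 0.0912, the 96 h values 0, 0.192 and 0.162 and the 168 h values 0.153, 0.0305 and 0.203 TPM. Both XEN libraries listed Foxd3 at 0. The log2 change was -3.66 ± 0.15 at 48 h and -3.76 ± 0.15 at 168 h.

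A non-coding gene next to Foxd3, Gm12688, followed it. Gm12688 lies at chr4:99653607-99654983 on the opposite strand, with 1315 bases between the annotated genes. From a mean of 5.83 ± 0.908 TPM (SD, n = 3) at 0 h it went to 1.19 ± 0.167 TPM by 16 h and was at 0.589 ± 0.221 TPM after 168 h. Both XEN libraries listed it at 0. It was called lower at every time of Dox, with a log2 change of -1.64 ± 0.24 at 16 h (limma adjusted p = 7.83e-05) and -2.10 ± 0.24 at 168 h. Whether reads of Foxd3 and Gm12688 were counted for each other was not tested. Otx2os1 runs antisense to Otx2 over 5112 bases, and no group mean of it exceeded 0.0372 TPM.

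**Figure D3:**
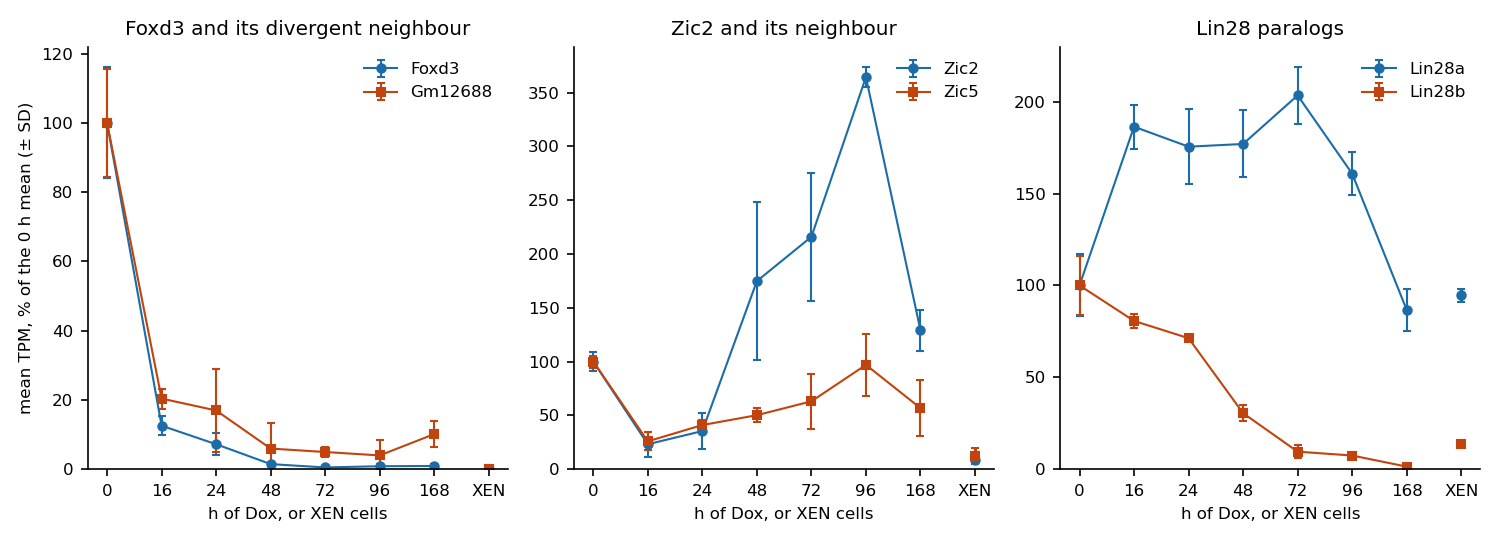
Mean TPM as a percentage of the 0 h mean (y axis) by hours of Dox and in XEN cells (x axis). Bars are ± SD over 3 libraries, or over 2 for XEN cells. The left panel shows Foxd3 with Gm12688, both far lower by 16 h, the middle panel Zic2 and Zic5, and the right panel Lin28a and Lin28b, at 203% and 9.48% at 72 h.

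Zic2, a zinc finger factor that binds enhancers of formative cells, fell early and then rose above its starting level. It stood at 2.09, 1.77 and 1.85 TPM at 0 h and at 0.679, 0.395 and 0.244 TPM at 16 h. All 16 h libraries lay below those of 0 h, with a log2 change of -1.02 ± 0.20 (limma adjusted p = 0.00167) and 23.1% of the mean left. This call sat at the limit, since the change was -0.97 without replicate 1 of 0 h and -0.92 without replicate 3 of 16 h, both short of 1. At 24 h the levels were 0.963, 0.324 and 0.730 TPM, again below 0 h, with a change of -0.81 ± 0.20 that was not called. It was -1.47 and called when the pseudocount was 0.1 (limma adjusted p = 0.0032).

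Between 24 and 48 h the direction turned. Zic2 was at 3.27, 4.75 and 1.95 TPM at 48 h, above all 24 h libraries, a log2 change of 1.34 ± 0.20 (limma adjusted p = 4.63e-05). It reached 3.37, 3.55 and 5.40 TPM at 72 h and 6.78, 7.13 and 6.88 TPM at 96 h, all 96 h libraries standing above every other library of the induction series. The change against 0 h at 96 h was 1.45 ± 0.20 (limma adjusted p = 3.28e-06), or 364% of the mean at 0 h. At 168 h the levels of 2.53, 2.77 and 2.06 TPM were lower than at 96 h, by -1.20 ± 0.20 (limma adjusted p = 0.000103), and overlapped those of 0 h. XEN cells had 0.172 and 0.152 TPM, below every induced and untreated library.

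Zic5, which lies 9757 bases from Zic2 on the opposite strand, also fell at 16 h and came back. It started from 3.23 ± 0.180 TPM (SD, n = 3) and was at 0.835 ± 0.271 TPM after 16 h, a log2 change of -1.22 ± 0.22 (limma adjusted p = 0.000602). By 96 h its level of 3.13 ± 0.933 TPM was near that at the start, with a change of -0.06. Zic1 was called higher at 168 h, at 1.91 ± 0.559 TPM against 0.409 ± 0.566 TPM, and Zic4 did not pass the filter on low values.

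Sall2, a spalt-like zinc finger factor, rose steadily and was the only 1 of the 7 tested genes called higher in both the 168 h and the XEN comparisons. Its levels were 1.05, 0.954 and 1.09 TPM at 0 h, 0.953, 1.09 and 1.34 TPM at 16 h, and 1.23, 1.27 and 1.24 TPM at 24 h. From 24 h on all its libraries lay above those of 0 h. At 48 h it was at 2.0, 1.95 and 1.97 TPM and at 72 h at 2.02, 2.22 and 2.41 TPM, log2 changes of 0.55 ± 0.09 and 0.66 ± 0.09 that were not called. The change at 72 h was 1.04 and called when the pseudocount was 0.1 (limma adjusted p = 3.03e-06). At 96 h it was at 3.45, 3.57 and 3.05 TPM, a change of 1.10 ± 0.09 (limma adjusted p = 4.20e-09). At 168 h it was at 5.36, 5.15 and 5.77 TPM, a change of 1.66 ± 0.09 (limma adjusted p = 6.10e-12), or 528% of the 0 h mean. The levels of XEN cells, 5.98 and 6.46 TPM, lay above every induced library, but the difference from 168 h was 0.17 ± 0.11 (limma adjusted p = 0.199). The paralogs Sall1 and Sall4 were far more abundant, and neither was called at any time of Dox.

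Fgf5, the secreted growth factor used as a marker of the formative epiblast, was near the limit of detection throughout. Its highest library had 1.09 TPM, at 24 h, and its highest group mean was 0.649 TPM, so it was not tested. At 0 h it was at 0.223, 0.162 and 0.629 TPM, and every time of Dox overlapped this range. The 16 h libraries had 0.122, 0.476 and 0.0507 TPM, the 48 h libraries 0.244, 0.375 and 0.437 TPM and the 168 h libraries 0.305, 0.670 and 0.0912 TPM. The 96 h libraries had 0.315, 0.0608 and 0 TPM, and those of XEN cells 0 and 0.0202 TPM. A change in Fgf5 was not detectable at these levels. Fgf4, the ligand of naive cells, stood at 85.1 ± 9.96 TPM (SD, n = 3) at 0 h and at 0.582 ± 0.188 TPM at 168 h.

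Utf1, a chromatin-associated factor of pluripotent cells, was the most abundant of the 8 genes at 0 h and held its level for 24 h. It stood at 499, 491 and 534 TPM at 0 h, 487, 562 and 482 TPM at 16 h, and 486, 497 and 509 TPM at 24 h. These groups overlapped, and the log2 changes were 0.00 ± 0.20 and -0.03 ± 0.20. At 48 h it was at 267, 252 and 280 TPM, below all earlier libraries, a change of -0.93 ± 0.20 (limma adjusted p = 0.000543) that was short of a call.

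Utf1 then fell in 2 called steps. At 72 h its levels were 89.1, 91.1 and 203 TPM, a change of -2.09 ± 0.20 against 0 h (limma adjusted p = 1.94e-08) and of -1.16 ± 0.20 against 48 h (limma adjusted p = 0.000264). Replicate 3 of 72 h stood apart, and the step from 48 h was -0.96 without replicate 1 of 72 h and -0.98 without replicate 2, both short of a call. In the same library the 12 fibroblast feeder markers summed to 158 TPM, against 56.2 and 66.8 TPM in the other two, and the 12 PrE markers to 6028 TPM, against 7089 and 7343 TPM. The 12 naive pluripotency genes summed to 472 TPM there, against 623 and 654 TPM, and the 18 other formative and primed epiblast genes to 505 TPM, against 307 and 318 TPM. The part of these differences in the Utf1 value was not tested. At 96 h Utf1 was at 93.4, 91.9 and 97.8 TPM, and at 168 h at 8.91, 11.0 and 11.8 TPM, a step of -3.05 ± 0.20 (limma adjusted p = 1.51e-09). Its mean at 168 h was 2.08% of that at 0 h, and XEN cells were lower still, at 1.07 and 1.25 TPM, by -2.41 ± 0.22 against 168 h (limma adjusted p = 4.85e-08).

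LIN28A and LIN28B are RNA-binding proteins that block the maturation of let-7 microRNAs and so keep let-7 targets expressed in immature cells. The paralogs took different courses under GATA6. Lin28a levels lay above those of 0 h from 16 to 96 h, passing the call at 72 h, and overlapped them at 168 h, whereas Lin28b fell from 48 h on.

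Lin28a stood at 108, 108 and 143 TPM at 0 h and at 234, 227 and 206 TPM at 16 h. Its levels were 220, 227 and 182 TPM at 24 h, 225, 223 and 186 TPM at 48 h, 224, 245 and 261 TPM at 72 h and 201, 199 and 176 TPM at 96 h. All 15 of these libraries lay above the highest of 0 h. The log2 changes were 0.90, 0.81, 0.83, 1.03 and 0.69, each ± 0.12, with limma adjusted p between 3.69e-07 and 4.44e-05. Only that at 72 h passed the change of 1, and it was 0.95 after median-of-ratios rescaling and 0.96 to 0.98 without replicate 1 or 2 of 0 h or replicate 3 of 72 h. At 168 h Lin28a was at 110, 113 and 87.8 TPM, overlapping 0 h, with a change of -0.20 ± 0.12 (limma adjusted p = 0.140). XEN cells had 110 and 116 TPM, which overlapped both 0 h and 168 h.

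Lin28b was at 6.85, 7.82 and 5.64 TPM at 0 h, far under Lin28a on the same scale. It was at 5.52, 5.67 and 5.19 TPM at 16 h and 4.87, 4.72 and 4.87 TPM at 24 h, changes of -0.26 ± 0.12 and -0.41 ± 0.12 that were not called. At 48 h it was at 2.41, 1.93 and 1.85 TPM, below every earlier library, a change of -1.34 ± 0.12 (limma adjusted p = 1.40e-08). It went on to 0.558, 0.456 and 0.912 TPM at 72 h, 0.467, 0.517 and 0.517 TPM at 96 h and 0.0610, 0.0914 and 0.122 TPM at 168 h. The change at 168 h was -2.82 ± 0.12 (limma adjusted p = 6.32e-14), and 1.35% of the mean at 0 h was left. XEN cells, at 0.940 and 0.921 TPM, stood above all 72 to 168 h libraries, and their difference from 168 h was 0.82 ± 0.13 (limma adjusted p = 4.18e-05), short of the change of 1. With a pseudocount of 0.1 that difference was 2.44 and was called (limma adjusted p = 6.91e-08). Replicate 3 of 72 h, which was high in Utf1, was also the highest of its group in Lin28b.

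Of 8 symbols listed for proteins that process let-7 or act on it with LIN28, 6 were tested, the others being older names of listed genes. At 168 h, 1 of the 6 was called higher and 0 lower. Tut7, a terminal uridylyltransferase, went from 21.7 ± 1.81 to 66.0 ± 7.33 TPM (SD, n = 3), a log2 change of 1.56 ± 0.09 (limma adjusted p = 3.84e-12). Drosha and Dgcr8, the nuclear microprocessor, had changes of -0.70 and -0.55, and Dicer1 one of 0.25, none of which was called. let-7 itself was not measured in these polyA libraries.

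Of 12 mRNAs listed as let-7 targets, 6 were called higher and 1 lower at 168 h, beside 22.6% and 16.5% of all genes. The median log2 change of the 12 was 0.56 beside 0.09 over all tested genes. Hmga2, a chromatin protein, went from 5.39 ± 2.74 to 17.4 ± 3.38 TPM, a change of 1.59 ± 0.19 (limma adjusted p = 4.57e-07). Igf2bp3, an RNA-binding protein, went from 6.37 ± 2.80 to 26.0 ± 5.66 TPM, and Ccnd2, a G1 cyclin, from 12.8 ± 7.92 to 68.7 ± 9.06 TPM. Hmga2 was already at 18.8 ± 3.75 TPM at 16 h and at 28.9 ± 0.398 TPM at 48 h. At 16 h, Igf2bp3 and Ccnd2 were at 6.65 ± 2.03 and 11.1 ± 4.43 TPM. Hmga1 moved the other way by 168 h, from 830 ± 63.4 to 23.3 ± 1.08 TPM, a change of -5.09 ± 0.06 (limma adjusted p = 6.04e-21). The list therefore held changes in both directions, and its targets were chosen from general knowledge, not from let-7 measurements in these cells.

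XEN cells were compared with untreated ES cells and with the 168 h cells. Against 0 h, 5 of the 7 tested genes were lower (Otx2, Foxd3, Zic2, Utf1 and Lin28b) and 1 higher (Sall2), where 18.7% of all genes were lower and 18.9% higher. The log2 change was -7.88 ± 0.22 for Utf1 (limma adjusted p = 2.96e-16), -2.0 ± 0.13 for Lin28b (limma adjusted p = 6.91e-11) and -1.32 ± 0.23 for Zic2 (limma adjusted p = 3.59e-05). Otx2 and Foxd3 were listed at 0, so no fold is given for them. Lin28a differed by -0.07 ± 0.13.

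Against the 168 h cells, Zic2 and Utf1 were lower in XEN cells and 0 genes were higher, where 9.17% and 4.73% of all genes were called. Zic2 differed by -1.57 ± 0.23 (limma adjusted p = 1.44e-05). The median of all tested genes lay at -0.14 in this comparison and at -0.02 after median-of-ratios rescaling, so small differences between XEN and 168 h cells are best read against that shift. With a pseudocount of 0.1, Otx2 and Foxd3 were also called lower and Lin28b higher, which made 5 of 7, while the count over all 15057 genes went from 2092 to 3215.

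Steps between neighbouring times placed these changes. From 16 to 24 h, 0 of the 7 genes were called, where 0.12% of all genes were lower and 0.232% higher. From 24 to 48 h, Zic2 was higher and 0 were lower, against 3.12% and 2.44%. From 48 to 72 h, Utf1 was lower and 0 were higher, against 1.38% and 1.95%. From 72 to 96 h, 0 were called, against 1.04% lower and 0.671% higher, and 0.66 ± 0.20 for Zic2 was the largest of the 7 changes in size (limma adjusted p = 0.0342). From 96 to 168 h, Zic2 and Utf1 were lower and 0 were higher, against 2.44% and 5.23%. For the 0 counts, 1 of the 7 genes had an unadjusted limma p under 0.05 from 16 to 24 h (Foxd3). From 72 to 96 h, 4 of the 7 did (Otx2, Zic2, Sall2 and Lin28a). The share of all genes at that unadjusted p was not computed, so these counts have no background. With no fold minimum, 390 and 2477 of all 15057 genes were called at the adjusted p in these steps. Lin28b fell by under 1 on the log2 scale in each of the steps from 24 to 48 h (-0.93 ± 0.12) and from 48 to 72 h (-0.90 ± 0.12). These steps of Lin28b were -1.20 and -1.58 when the pseudocount was 0.1, and both were called (limma adjusted p = 0.000189 and 2.93e-05).

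Other genes of the formative and primed epiblast were described from a list of 18, all tested. At 16 h, 2 were higher and 2 lower, beside 1.97% and 0.804% of all genes. At 168 h, 1 was higher and 12 lower, beside 22.6% and 16.5%, and the median log2 change of the 18 was -2.11. Tdgf1, the NODAL co-receptor, went from 477 ± 50.8 to 1.88 ± 1.06 TPM (SD, n = 3), a change of -7.43 ± 0.31 (limma adjusted p = 7.29e-14). Etv4, an ETS factor downstream of FGF, went from 110 ± 16.5 to 2.05 ± 0.250 TPM. Grhl2, a grainyhead factor of epiblast enhancers, went from 27.7 ± 2.27 to 0.203 ± 0.0442 TPM, and the ligand gene Nodal from 36.4 ± 5.12 to 0.660 ± 0.106 TPM. The 2 genes higher at 16 h were the de novo DNA methyltransferases Dnmt3a and Dnmt3b, named here after their values were seen, at 234 and 365 TPM against 32.4 and 115 TPM at 0 h.

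Naive pluripotency genes fell with them. Of 12, all tested, 5 were lower and 1 higher at 16 h, and 9 lower and 0 higher at 168 h, with a median log2 change of -4.23. Nr0b1, Esrrb and Nanog went from 176, 253 and 281 TPM to 0.545, 1.62 and 1.73 TPM, and Fgf4 is given above. Of the 3 core pluripotency genes, Sox2 and Pou5f1 were lower at 168 h and Sall4 was not called. Pou5f1 went from 1654 ± 155 TPM before Dox to 1169 ± 41.1 TPM after 48 h and 63.4 ± 42.1 TPM after 168 h. At 16 h, when Otx2 and Foxd3 had fallen, every library had at least 1304 TPM of Pou5f1. Of the 3 core genes, 1 was called lower at that time, Sox2, at 144 TPM against 323 TPM at 0 h. Nanog and Fgf4 were by then at 96.3 and 31.6 TPM, against 281 and 85.1 TPM at 0 h.

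Markers of other cells bear on what else these samples held. The 12 PrE markers summed to 44.7 to 59.1 TPM at 0 h and 14086 to 14840 TPM at 168 h, and all 12 were higher at 168 h. Of the 12 fibroblast feeder markers, 11 were tested, of which 0 were called at 16 h. At 168 h, 6 of the 11 were higher, beside 22.6% of all genes. The feeder sum ranged from 42.7 to 124 TPM at 0 h, 131 to 289 TPM at 168 h and 103 to 112 TPM in XEN cells. The collagen gene Col3a1 went from 5.45 ± 4.37 to 46.8 ± 20.3 TPM (SD, n = 3) at 168 h, a log2 change of 3.01 ± 0.49 (limma adjusted p = 1.72e-05). Col1a2, Postn and Lum, also genes of the extracellular matrix, went from 22.1, 2.16 and 0.375 TPM to 51.8, 7.71 and 4.24 TPM, and all were called higher. Replicate 3 had the highest feeder sum at 6 of 7 times, and at 168 h it also had the highest Sall2. The part of feeder RNA in the Sall2 level at 168 h was not tested. The feeder sums overlapped between 0 and 16 h, at 42.7 to 124 and 83.4 to 156 TPM.

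At 96 h, when Sall2 was first called, 1 feeder marker was higher, Col3a1, and the feeder sum was 84.6 to 122 TPM, above the sums of 42.7 and 53.4 TPM and below that of 124 TPM in the 0 h libraries. Of the 12 neural and neural crest markers, where Zic2, Otx2 and Foxd3 also act, 6 were tested, 0 were called at 16 h, 1 was higher and 3 were lower at 96 h, and 3 were lower at 168 h, among them Olig2, from 12.4 ± 0.607 to 0.152 ± 0.0730 TPM. Pax3, Sox10 and Pax6 were among those that did not pass the filter in any group. Of 8 mesoderm and streak markers, 3 were tested and 0 were called at 168 h, but at 96 h, when Zic2 peaked, 2 were higher. These 2 were Eomes and Hand1, at 8.87 and 7.07 TPM against 1.66 and 0.494 TPM at 0 h. Of 8 trophectoderm markers, 6 were tested, and at 96 h 4 were higher and 1 lower, beside 15.4% and 14.1% of all genes. The part of any such cells in the Zic2 peak was not tested.

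The genes whose pattern was most like that of each gene were found over the 23 libraries, among 11355 genes whose mean reached 5 TPM in any group. These correlations are descriptions, since the libraries share 8 groups. Otx2 was most like Foxd3 (r = 0.96), Ceacam1 (r = 0.96) and Prdm14 (r = 0.96). Foxd3 was most like Gna14 (r = 0.98), Mcf2 (r = 0.97) and Aoah (r = 0.97), and Gna14 for example went from 9.11 TPM at 0 h to 2.81 TPM at 16 h. Sall2 was closely followed by Gpr180 and Sgsh (each r = 0.99).

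Utf1 was most like Gm13147 and Khdrbs3 (each r = 0.99), and Lin28b like Prdx1, Abcc4 and Bid (each r = 0.99). Zic2 was most like Cdo1 (r = 0.93), Atox1 (r = 0.91) and Pepd (r = 0.91), which were also highest at 96 h. Cdo1, a cysteine dioxygenase, went from 4.65 TPM before Dox to 32.1 TPM after 96 h and 10.9 TPM after 168 h. Lin28a was most like Slc29a1, Jpt1 and Engase (each r = 0.91). Among the 7 genes themselves, Sall2 and Utf1 ran opposite (r = -0.95), and Lin28a and Lin28b were nearly unrelated (r = 0.18).

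The siRNA series asks whether Oct4 is needed for the response to GATA6, and here it is given for the 5 listed genes at 48 h of Dox. The knockdown held in every library, since Pou5f1 was at 782 to 1194 TPM with siCTL and 282 to 387 TPM with siOct4. The log2 difference of Pou5f1 was -1.52 (2-sided exact permutation p = 0.00216, the smallest that 6 against 6 libraries allow). None of the 5 genes was called, where 1.72% of the 6264 tested genes were lower and 0.942% higher. In a fit blocked by replicate number, 0 of the 5 were again called, while the count over all genes went from 167 to 537. At an unadjusted limma p under 0.05, 1 of the 5 genes, Utf1, was below, and the share of all genes at that p was not computed.

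**Figure D4:**
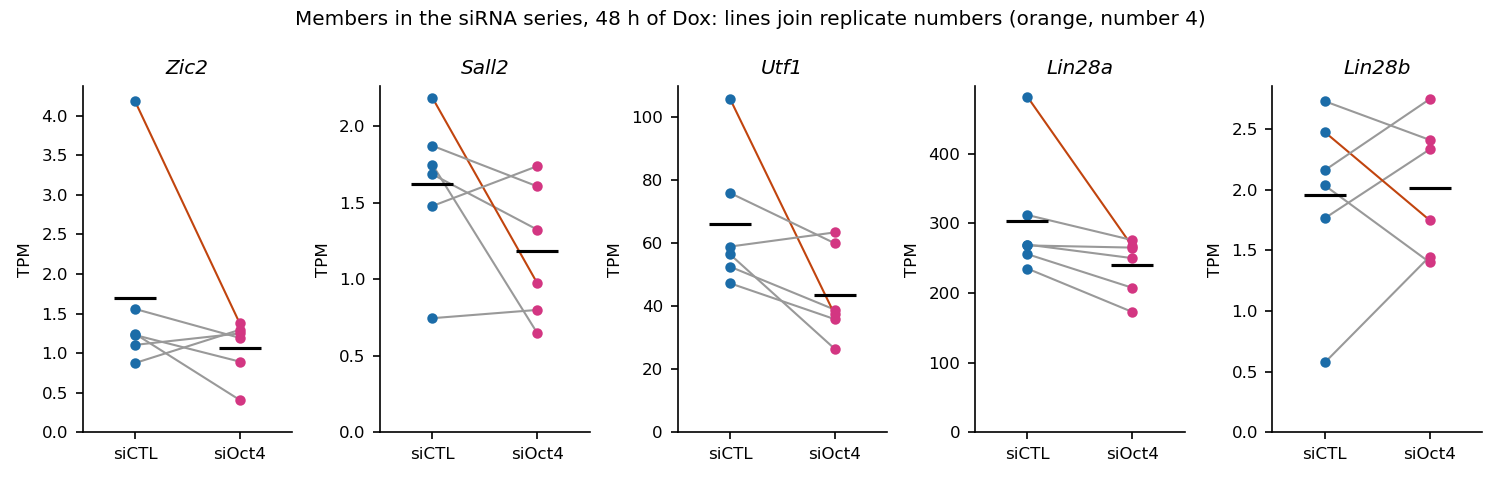
TPM (y axis, a separate scale for each gene) of the 5 listed genes in the siCTL and siOct4 libraries (x axis) after 48 h of Dox, 6 libraries each. Lines join libraries with the same replicate number, number 4 in orange, and black bars are means. The siCTL library of replicate 4 is the highest of its group for Zic2, Sall2, Utf1 and Lin28a, and Lin28a is lower with siOct4 in all 6 pairs.

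Utf1 came nearest to a change. It ranged from 47.4 to 106 TPM (median 57.8) with siCTL and from 26.6 to 63.5 TPM (median 38.2) with siOct4, so the groups overlapped. It was lower with siOct4 in 5 of 6 pairs. The log2 difference was -0.60 ± 0.24 (SE; limma adjusted p = 0.262, or 0.0733 when blocked by replicate number). The 2-sided exact permutation p was 0.0411, which became 0.206 after Benjamini-Hochberg adjustment over the 5 genes. Without the siCTL library of replicate 4, chosen after its values were seen, the difference was -0.45 and the exact permutation p was 0.0844.

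Lin28a ranged from 235 to 482 TPM (median 269) with siCTL and from 173 to 276 TPM (median 258) with siOct4. It was lower with siOct4 in 6 of 6 pairs, the differences within pairs running from -0.847 to -0.0168 on the log2 scale. The difference of -0.31 ± 0.18 gave an exact permutation p of 0.117 over libraries and an exact sign-flip p of 0.0312 over pairs, the smallest that 6 pairs allow. After adjustment over the 5 genes the latter was 0.156. In this comparison the median of all tested genes lay at -0.12, and at 0.01 after median-of-ratios rescaling. The rescaled difference of Lin28a was -0.16, and that of Utf1 was -0.45.

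Zic2 ranged from 0.875 to 4.18 TPM (median 1.24) with siCTL and from 0.410 to 1.38 TPM (median 1.22) with siOct4. Its difference of -0.31 ± 0.24 (exact permutation p = 0.279) was -0.10 without the siCTL library of replicate 4. Sall2 ranged from 0.746 to 2.18 TPM with siCTL and from 0.649 to 1.74 TPM with siOct4, a difference of -0.26 ± 0.20 (exact permutation p = 0.149). Lin28b ranged from 0.576 to 2.73 TPM with siCTL and from 1.40 to 2.74 TPM with siOct4, a difference of 0.06 ± 0.22 (exact permutation p = 0.833). For each of these 3 genes the groups overlapped, for Zic2 only in the lower part of the siCTL range.

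The siCTL library of replicate 4 also had the highest sum of the 12 PrE markers, 7251 TPM against 2560 to 4163 TPM in the other siCTL libraries and 1585 to 3456 TPM with siOct4. The 6 feeder markers listed in the table summed to 27.2 to 214 TPM with siCTL and 28.3 to 220 TPM with siOct4, with wide overlap. Their part in the differences above was not tested. Zic5, the neighbour of Zic2, differed by -0.29 ± 0.30 between siOct4 and siCTL and was not called.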

How the data were processed

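RNA was measured in 35 libraries. Per the labels and the study's methods, the authors made stranded polyA libraries, trimmed reads with cutadapt, used STAR for alignment to mm10 and RSEM, with strand taken into account, for quantification, left out outliers seen by principal component analysis, and deposited TPM. Their versions and the gene annotation are not given in the sources used here, nor is which of 2 derived clones gave the induction series. Replicates were independent experiments per the study. The deposited induction table held 44853 genes after 60 duplicated symbols were reduced to the row of highest mean. The siRNA table was limited to genes that responded to GATA6 in the authors' analysis, so its deposited TPM columns summed to 274527 to 355895. The authors' group means and their text classes of response were not used. The precision given here rests on the spread between libraries. Depth also limits it, most at low levels, but TPM do not record depth.

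TPM were tested as log2(TPM + 1), so a log2 change understates that of genes at low level, with limma 3.58.1 in R 4.3.3 (lmFit, eBayes with trend and robust options) and Benjamini-Hochberg adjustment over all genes with a group mean of at least 1 TPM, 15057 in the induction table in 1 fit over 23 libraries and 6264 in the siRNA table. Values from the 2 tables were not compared. Exact permutation and sign-flip tests of single genes were 2-sided. The test was checked on simulated data. The alternatives tried were a pseudocount of 0.1, no filter, a filter of 5 TPM, median-of-ratios rescaling, only the compared groups, a replicate block, no fold minimum and leaving out each library.

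In the siRNA series the main limma fit and permutation tests were unpaired, and the blocked fit and sign-flip tests paired samples by replicate number. The study used a paired T test for endogenous Gata6 over 6 independent knockdowns. Libraries of the same number deviated together from their groups in all 6 pairs (r = 0.24 to 0.71, mean 0.33). Over the 30 pairs of different number, r ran from -0.56 to 0.46 (mean -0.06). The ranges overlap, so the pairing by number is an assumption that these values do not settle.

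The genes and lists were chosen with earlier results of these data known. Named genes were the 8 members, the 3 genes most alike each, Gata6 and Pou5f1 as checks of the labels, and up to 4 genes per list with the largest change at 168 h. Some genes that this rule names are not reported here. Promoters came from RefSeq on GRCm38.p6. Figures were drawn with matplotlib 3.10.9.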

Additional observations from a re-analysis of the deposited data

Results flagged for a closer look

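Among 10 sets of 6 siRNA libraries (5 genes in each of 2 groups), 2 had a library far from the others by Dixon's test at 95%, where chance gives about 1 set in 20. For Zic2 in siCTL, replicate 4 was highest at 4.18 TPM with the next at 1.56 TPM, a gap of 0.694 of the group's range on the log2(TPM + 1) scale against a limit of 0.625. The same library was the highest of its group for Sall2, Utf1 and Lin28a without passing that limit. For Lin28b in siCTL, replicate 3 was lowest at 0.576 TPM with the next at 1.76 TPM, a gap of 0.653 of the range. Groups of 3 or fewer libraries were not examined in this way.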

How the results depend on the processing

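Over the alternatives, 1195 of 1244 recomputed changes of single genes kept their direction and call, 40 gained a call, 9 lost one and 0 reversed. Of the 40, 24 came with no fold minimum and 12 with a pseudocount of 0.1. With a pseudocount of 0.1, 5 genes were called for XEN against 168 h (2 in the main test), where 3215 of all genes were called (2092). For 48 against 24 h it was 3 (1), with 1483 of all genes (837). For 72 against 48 h it was 2 (1), with 1053 of all genes (502). For 96 against 72 h it was 1 (0), with 609 of all genes (257). For 168 against 96 h it was 4 (2), with 2038 of all genes (1155). Zic2 at 24 h (-1.47) and at 72 h (1.04) and Sall2 at 72 h (1.04), each against 0 h, also gained a call. With no fold minimum, 5 genes were called for 24 h and 7 for 48 h against 0 h (2 and 3), with 4293 and 8093 of all 15057 genes. For XEN against 168 h it was 4, with 7525 of all genes. For 48 against 24 h and 72 against 48 h it was 5 and 2, with 5645 and 4450 of all genes. For 96 against 72 h and 168 against 96 h it was 2 and 6, with 2477 and 6432 of all genes. With only the compared groups in the fit, 0 were called for 72 against 48 h, since Utf1 had an adjusted p of 0.0576 by limma.

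Leaving out each library in turn gave 1 to 2 genes for 48 against 24 h, where Lin28b joined without replicate 1 of 48 h, and 0 to 2 for 72 against 48 h, where Utf1 was lost without replicate 1 or 2 of 72 h and Lin28b joined without replicate 3. For 16 h against 0 h it gave 2 to 4, since Lin28a was called without replicate 3 of 0 h. The counts of all genes called moved by over 1.5 times with no fold minimum in every induction comparison, and for siOct4 ranged from 87 to 322 without 1 library (167 in the main test), with 297 after rescaling.

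A replicate block in the induction fit changed no call of the 7 tested genes, while the count over all genes for XEN against 168 h, for example, went from 2092 to 2128. There, the deviations of same-numbered libraries correlated at 0.03 on average over 77 pairs, and those of differently numbered libraries at -0.02 over 154 pairs. Replicate 3 nonetheless had the highest feeder sum at 6 of 7 times. In the siRNA series the replicate block left 0 of the 5 genes called. The exact test over pairs lost Utf1 (p = 0.0625) and gained Lin28a (p = 0.0312) before adjustment, and without replicate 4 of siCTL, chosen after the values were seen, Utf1 had an exact permutation p of 0.0844.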
